A study of Mus musculus with 12 samples.

Results

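The subject is the difference between 2 differentiation responses: the change in knock-down cells from untreated to day 6, minus the same change in control cells. It was described across the genes detected in at least 1 of the 4 groups that enter it, where detected means a detection p-value under 0.05 on both arrays of the group. By this rule 9619 of the 11621 genes fitted (82.8%) were members. Every sample came from F9, a line of mouse teratocarcinoma stem cells that turn into endoderm under retinoic acid, a vitamin A derivative. Control cells (CTL, Kdm3a expression WT) and cells with reduced Kdm3a (pRS-kdm3a, knock-down) were each taken untreated (0 h) and at 6 d, after 3 days of retinoic acid and 3 more of retinoic acid with cAMP. Each of these 4 groups had 2 arrays, called biological replicates in the labels, and 4 further arrays were of cells given retinoic acid for 72 h. Whether the control cells carried a construct of their own, and whether the knock-down cells are 1 clone, is not stated in the labels.

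Kdm3a is a demethylase that removes methyl groups from histone H3 at a lysine whose methylation marks silent chromatin. In F9 cells retinoic acid switches off stem cell genes and switches on Gata-driven endoderm genes, and cAMP added with it leads the cells towards parietal endoderm, a tissue that secretes a thick basement membrane. A gene for which the response depends on Kdm3a would have a difference of responses, called the interaction here, away from 0. A positive interaction means a greater rise or a smaller fall in knock-down cells, and a negative one a smaller rise or a greater fall. Values are log2 intensities after background correction and quantile normalization, so an interaction of 1 is a doubling of the ratio between the responses.

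Median raw intensities ran from 124.8 to 219.8 over the 12 arrays, and 15204 to 18471 of 45281 probes were detected. Replicate arrays of the 4 groups correlated at 0.955 to 0.983 over genes. Over 19450 probes undetected on the arrays, 3 arrays (the second of untreated knock-down, of control 6 d and of knock-down 6 d) correlated at 0.37 to 0.39 with each other, against 0.23 to 0.32 for the other pairs of the 8. Leaving out these 3 arrays moved the interaction by over 1.5 times for 45 of the 137 genes in the text that were refitted, and for 0 of the 30 leading members named below. Those 30 were chosen for response ranges that did not overlap, which favours small moves, so the 0 describes the choice. Values without them are given beside the gene lists and the main genes they moved. That fit leaves a single array in 3 of the 4 groups of the interaction.

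Kdm3a itself was lower on every knock-down array than on any control array of the same stage. Its log2 intensity was 9.97 and 9.98 on the untreated control arrays and 8.93 and 8.88 on the untreated knock-down arrays. At 72 h it was 9.78 and 9.90 in control cells and 8.17 and 8.06 in knock-down cells. At 6 d it was 9.29 and 9.12 in control cells and 7.76 and 7.53 in knock-down cells. The groups did not overlap at any stage, as the labels require. Kdm3a fell by 0.76 (SE 0.19) in control cells between 0 h and 6 d (limma adjusted p = 0.016). It fell by 1.26 (SE 0.19) in knock-down cells (limma adjusted p = 0.000895). The interaction for Kdm3a was -0.50 (SE 0.27, limma adjusted p = 0.978), and its other probes gave -0.36 and -0.27.

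No gene passed the test for the interaction. At a limma adjusted p under 0.05, 0 of 9619 members were called higher and 0 lower, against 0% of the 11621 genes fitted, and the smallest adjusted p was 0.0902, shared by Gjb2 and Ldc1. Before adjustment, 547 members (5.69%) had a limma p under 0.05, of which 250 (2.6%) were higher and 297 (3.09%) lower. Over all genes fitted the same counts were 668 (5.75%), 313 (2.69%) and 355 (3.05%), so the members' share is that of the background. The interaction exceeded 1 in size for 410 members (4.26%, against 4.27% of all genes) and stayed under 0.5 for 7540 (78.4%). For 145 members higher and 169 lower by at least 1, the ranges of array-level responses did not overlap between the cell types. Those were 1.51% and 1.76% of members, beside 1.51% and 1.75% of all genes.

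With 2 arrays in each group, the median 95% interval of a member's interaction reached 0.84 to either side of its estimate. The median size of the interaction was 0.23, and its 90th percentile was 0.75. Differences of that size were not detectable at this number of arrays, and an interaction that missed the threshold is not shown to be 0. Leaving out the second control 6 d array gave 1 call, Gjb2, and every other array left out gave none.

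The responses themselves were large and much alike in both cell types. In control cells 1403 members rose and 1137 fell from 0 h to 6 d at a limma adjusted p under 0.05, beside 12.2% and 10% of all genes fitted. In knock-down cells 1395 members rose and 1175 fell, beside 12.1% and 10.2% of all genes. Of the members that rose, 1039 did so in both cell types, which is 74.1% of the control list and 74.5% of the knock-down list. Of those that fell, 784 did so in both, 69% and 66.7% of the lists. Both responses are single tests of 2 arrays against 2, so a gene on 1 list alone is not shown to respond differently.

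A single member, Ldc1, was called in opposite directions. It was 5.50 and 5.60 on the untreated control arrays and 4.57 and 4.71 on the control 6 d arrays, a fitted fall of 0.91 (limma adjusted p = 0.0101). It was 4.52 and 4.72 on the untreated knock-down arrays and 6.06 and 5.71 on the knock-down 6 d arrays, a rise of at least 1.16-fold (limma adjusted p = 0.00158). Only the knock-down 6 d arrays detected Ldc1, so the fall lies wholly among undetected values and no bound on the interaction can be given.

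**Figure D1:**
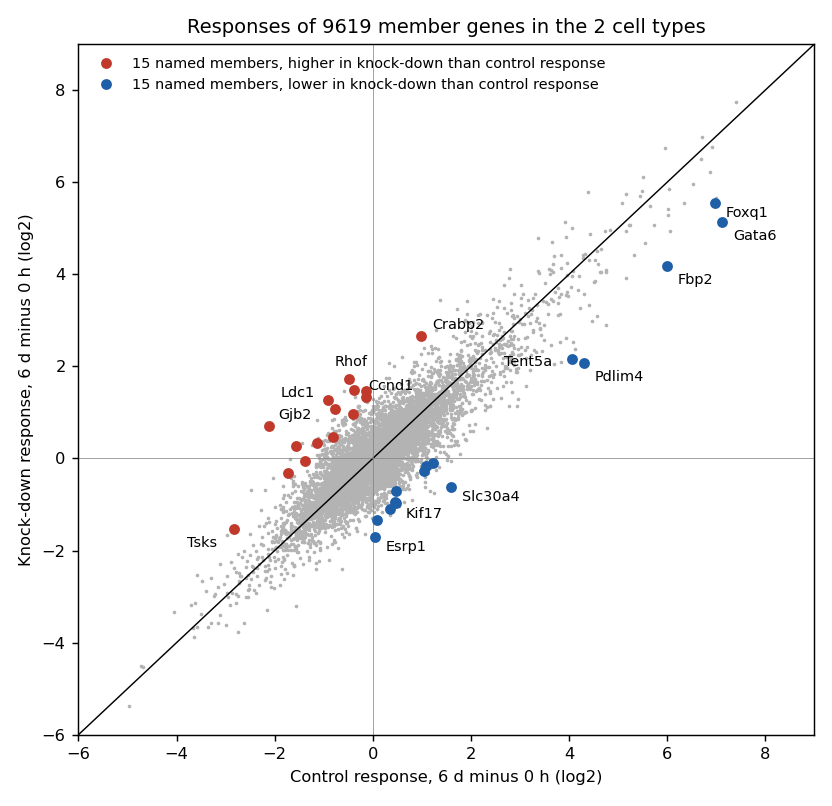
Each grey point is 1 of 9619 members, with its control response (6 d minus 0 h, log2) on the x axis and its knock-down response on the y axis. The black diagonal marks equal responses. The 30 named members, 15 above (red) and 15 below (blue), were chosen for their distance from it, and none passed the adjusted threshold.

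Since no gene was called, the 15 members with the smallest p in each direction were taken, among those with an interaction of at least 1 in size and response ranges that did not overlap. Their values describe this choice and are not a test of it. Their interactions ran from 1.28 to 2.82 in size among the higher and from 1.17 to 2.23 among the lower. Without background correction they ran from 0.38 to 1.38 and from 0.35 to 1.49, and 14 of the 15 higher and 13 of the 15 lower members were smaller by over 1.5 times. In the authors' processed table the same held for 14 and 12, with ranges of 0.43 to 1.43 and 0.39 to 1.56. Gjb2 went from 2.82 to 0.92 without background correction, Gata6 from -1.98 to -0.76 and Map3k14 from -1.32 to -0.40, while Ccnd1 went from 1.87 to 1.38. Where a gene was undetected in a group, its interaction is the fitted value. Of the 15 higher members 11 were undetected on both arrays of at least 1 group, and of the 15 lower members 13 were. Only Ccnd1, Zfyve1 and Rhox5 were detected on all 8 arrays.

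Ccnd1, which encodes cyclin D1, a driver of entry into the cell cycle, was the brightest of the higher members. Its log2 intensity was 9.99 and 10.00 on the untreated control arrays and 8.40 and 7.72 on the untreated knock-down arrays. At 6 d it was 9.41 and 9.81 in control cells and 9.55 and 9.54 in knock-down cells. The cell types stood apart before treatment and overlapped at 6 d. The response was -0.39 in control cells (limma adjusted p = 0.348) and a rise of 1.49 in knock-down cells (limma adjusted p = 0.0026). The interaction was 1.87 (SE 0.38, 95% interval 1.03 to 2.71, limma adjusted p = 0.574), and the gene's other probes gave 1.93 and 1.13. The 72 h arrays did not enter the estimate of the interaction, only the spread that all groups share in the fit. There Ccnd1 was 8.58 and 8.38 in control cells and 8.65 and 8.18 in knock-down cells, a difference of -0.06.

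Gjb2, which encodes the gap junction protein connexin 26, had the largest interaction. It was 7.07 and 7.25 on the untreated control arrays and 4.67 and 5.41 on the control 6 d arrays, a fall of at least 3.01-fold. In knock-down cells it was 5.39 and 5.21 untreated and 6.07 and 5.93 at 6 d. Both arrays detected it in untreated control and in knock-down 6 d cells, and neither array did in knock-down 0 h and control 6 d cells. The fitted interaction was 2.82 (SE 0.38, limma adjusted p = 0.0902), and with undetected groups set to their bound the responses differed at least 3.79-fold. At 72 h it was 6.08 and 6.46 in control cells and 5.53 and 5.78 in knock-down cells, still lower in the knock-down. Without the second control 6 d array the interaction was 3.19 with a limma adjusted p of 0.0365, and over the alternatives that leave out no single array the adjusted p ran from 0.0533 to 0.95.

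Crabp2, a retinoic acid binding protein and a retinoic acid target, had a rise in both cell types that was greater in knock-down cells. It was 6.18 and 5.90 untreated and 7.10 and 6.95 at 6 d in control cells, a rise of 0.98 (limma adjusted p = 0.00933). In knock-down cells it was 5.41 and 5.80 untreated and 8.35 and 8.16 at 6 d, a rise of 2.65 (limma adjusted p = 1.48e-05). At 6 d the knock-down arrays were the higher, while untreated they were the lower. The interaction was 1.67 (SE 0.32, limma adjusted p = 0.503). The estimate of the interaction did not use the 72 h arrays. On them Crabp2 was again higher in knock-down cells, at 9.17 and 9.11 against 8.33 and 8.04.

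Rhof, a small GTPase that acts on actin, was 6.33 and 6.69 untreated and 5.69 and 6.36 at 6 d in control cells, against 6.02 and 5.15 and then 7.49 and 7.14 in knock-down cells (interaction 2.21, SE 0.52). Zfyve1, a lipid-binding zinc finger protein, was detected on all 8 arrays and had an interaction of 1.47 (SE 0.34). In Zfyve1 the control response was -0.14 and the knock-down response a rise of 1.33 (limma adjusted p = 0.0024).

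Camk2d, a calcium-dependent kinase, had an interaction of 1.61 on its brightest probe but 0.11 and 0.13 on the others. Rapgef3, which is activated directly by cAMP, fell at least 2.3-fold in control cells (limma adjusted p = 0.000451). In knock-down cells the response of Rapgef3 was -0.31 (limma adjusted p = 0.4), and control 6 d cells did not detect it. Zfp568, a zinc finger repressor, and Evc, a ciliary protein, were detected in untreated control cells and undetected in untreated knock-down cells, with interactions of 1.85 and 1.28. The rest of the higher set, Ankrd27 (1.84), Olfr1116 (1.47), Xlr4c (1.37), Rlbp1 (1.32) and Tsks (1.29), lay near the detection floor in several groups. Of these Tsks, undetected at 6 d, fell at least 3.46-fold in control cells and at least 1.62-fold in knock-down cells (limma adjusted p = 6.33e-06 and 0.000462). A dim second probe, detected on 1 of 8 arrays, gave an interaction of 0.20 for Zfp568, and another such probe gave 0.14 for Ankrd27.

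Gata6, a factor that sets the endoderm fate, was a member of the lower set. It was undetected on both untreated control arrays (5.17 and 5.32) and detected on both untreated knock-down arrays (7.30 and 6.79). At 6 d the groups overlapped, at 12.28 and 12.45 in control cells and 11.96 and 12.42 in knock-down cells. Gata6 rose at least 106-fold in control cells and 35.4-fold in knock-down cells (limma adjusted p = 4.16e-08 and 4.41e-07). Its interaction was -1.98 (SE 0.34, limma adjusted p = 0.322), and the responses differed at least 2.99-fold. The knock-down minus control difference in Gata6 was 1.80 at 0 h and -0.18 at 6 d, and its 72 h values, 12.00 and 11.87 against 11.82 and 11.83, differed by -0.11. A dim second Gata6 probe, detected on 2 of 8 arrays, gave 0.44.

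Foxq1, a forkhead transcription factor, was also in the lower set. It was 5.19 and 4.82 untreated and 11.97 and 11.99 at 6 d in control cells, and 5.46 and 5.81 and then 11.18 and 11.21 in knock-down cells. The knock-down arrays were the lower at 6 d and the higher before treatment. Foxq1 rose at least 81.1-fold in control cells and 47-fold in knock-down cells, with an interaction of -1.42 (SE 0.31, limma adjusted p = 0.574). Dab2, an endocytic adaptor of the endoderm that is outside the 15, was 12.17 and 12.22 at 6 d in control cells and 11.19 and 11.30 in knock-down cells, with an interaction of -1.33 (SE 0.40, limma adjusted p = 0.673). Its other probes gave -1.22 and -0.55. Leaving out single arrays moved the Dab2 value between -1.83 and -0.84.

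Pdlim4, which encodes a protein that binds actin filaments, had the largest interaction of the lower members. It was undetected on all 4 untreated arrays, at 5.44 and 5.46 in control cells and 5.56 and 5.72 in knock-down cells. At 6 d it was 10.08 and 9.43 in control cells and 7.61 and 7.80 in knock-down cells. It rose at least 17.3-fold in control cells and at least 4.11-fold in knock-down cells (limma adjusted p = 9.56e-06 and 0.00144). The interaction was -2.23 (SE 0.48, limma adjusted p = 0.574), and a dim second probe, detected on 1 of 8 arrays, gave 0.40, so that the mean of both was -0.92. At 72 h Pdlim4 was also lower in knock-down cells, at 5.96 and 7.11 against 8.46 and 8.58, a difference of -1.99.

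Tent5a, a poly(A) polymerase, had the smallest p among the lower members. It was 5.37 and 5.11 untreated and 9.36 and 9.25 at 6 d in control cells, a rise of at least 12.7-fold. In knock-down cells it was 6.55 and 6.13 untreated and 8.55 and 8.43 at 6 d, a rise of 4.45-fold. The knock-down arrays thus lay above the control arrays before treatment and below them at 6 d. Its interaction was -1.91 (SE 0.30, limma adjusted p = 0.208), and its second probe gave -0.48. At 72 h knock-down cells were again the lower, at 8.64 and 8.71 against 9.41 and 9.30.

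Fbp2, a gluconeogenic enzyme, was like Gata6 in that the cell types differed before treatment. It was 5.45 and 5.65 in untreated control cells and 6.70 and 7.50 in untreated knock-down cells. At 6 d it was 11.41 and 11.67 against 11.08 and 11.49, with overlapping groups. Its interaction was -1.80 (SE 0.41, limma adjusted p = 0.574).

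Rhox5, a homeobox gene of the X chromosome, was the member of the lower set detected on all 8 arrays. It was 11.31 and 11.44 untreated and 12.60 and 12.31 at 6 d in control cells, a rise of 1.08 (limma adjusted p = 0.00379). In knock-down cells it was 11.68 and 12.00 untreated and 11.58 and 11.77 at 6 d, a response of -0.16 (limma adjusted p = 0.635). Only the control 6 d arrays stood above all others. The interaction was -1.24 (SE 0.29, limma adjusted p = 0.574) and stayed between -1.40 and -1.08 with single arrays left out.

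Esrp1, a splicing regulator of epithelial cells, fell by 1.70 in knock-down cells (limma adjusted p = 0.00172). In control cells its response was 0.04. Slc30a4, a zinc transporter, rose at least 1.58-fold in control cells (limma adjusted p = 0.00781), with a response of -0.61 in knock-down cells. The kinase genes Map3k14 and Dapk2, undetected in untreated control cells, rose at least 1.32-fold and 1.57-fold in control cells (limma adjusted p = 0.00202 and 0.00695), and their fitted knock-down responses were -0.10 and -0.27. The remaining lower members, Zfp36l3 (-1.45), Cmklr1 (-1.44), Col1a2 (-1.41), Kif17 (-1.40) and Olfr638 (-1.17), were detected in untreated knock-down cells and undetected in untreated control and knock-down 6 d cells. Their interactions rest on untreated knock-down values of at most 6.18.

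**Figure D2:**
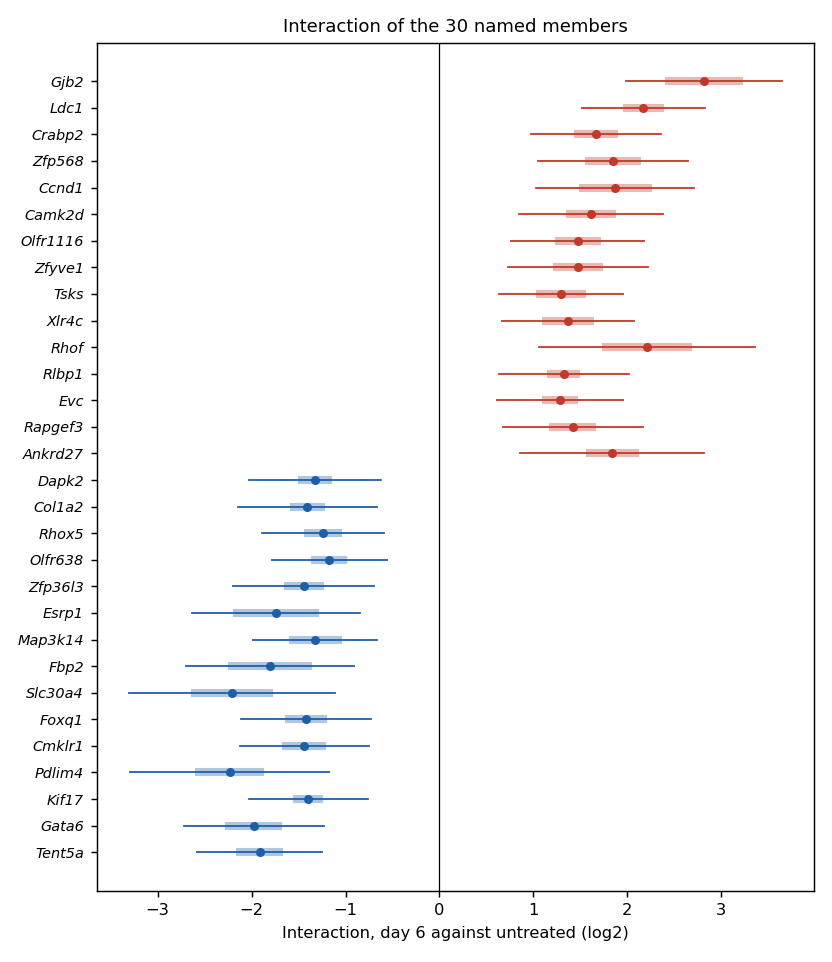
Interaction of each of the 30 named members (log2, x axis), with the point at the estimate, the thin line its 95% interval and the thick bar its range when each of the 8 arrays was left out in turn. Within each direction genes are ordered by p. Intervals are unadjusted, and they lie away from 0 because the genes were chosen by p. The bars cannot cross 0, because the genes were also chosen for response ranges that did not overlap.

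**Figure D3:**
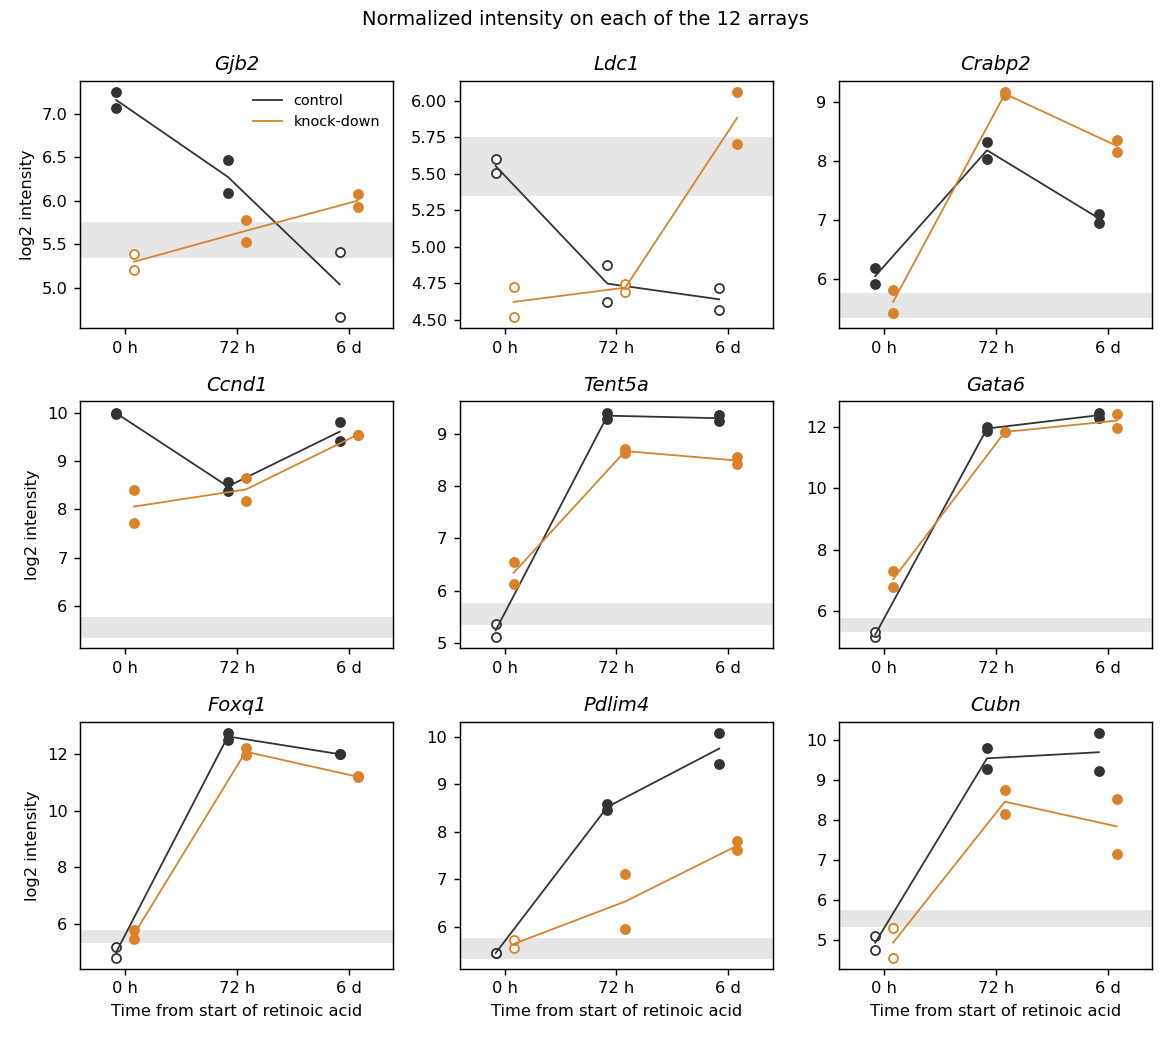
Log2 intensity on each of the 12 arrays for 9 genes, with stage on the x axis, control in black and knock-down in orange. Lines join group means, open circles mark groups undetected on both arrays, and the grey band spans the lowest detected value over the arrays. Gata6 and Ccnd1 differ between cell types at 0 h and overlap at 6 d, whereas Pdlim4 and Cubn are undetected at 0 h and differ at 6 d.

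Members that were undetected in a group had small p-values and large interactions more often than members detected throughout. Among the 7104 members detected on all 8 arrays, 161 (2.27%) had an unadjusted limma p under 0.05 and 1.27% had an interaction of at least 1 in size. Among the 1582 undetected on both arrays of at least 1 group, 312 (19.7%) had such a p and 14.6% such a size. These genes had to be detected in another group to be members, so the share is not a finding about dim genes. They made up 57% of the 547 members with a p under 0.05 and 16.4% of all members. Members detected on both arrays of exactly 1 group (925) had a median log2 intensity of 5.50 and a median interaction of 0.55 in size. Genes just outside the rule, detected on 1 array of a group at most (1725), had 5.26 and 0.35.

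Apart from Ccnd1, Zfyve1 and Rhox5, the members detected on all 8 arrays with the smallest p were chosen after their values were seen, and the smallest limma adjusted p among all 7104 was 0.574. On the higher side stood 2 keratins. Krt17 was 9.61 and 9.63 in untreated control cells, 8.24 and 8.18 in untreated knock-down cells, 5.99 and 6.09 at 6 d in control cells and 5.67 and 5.70 at 6 d in knock-down cells. The knock-down arrays were the lower at both stages, and by less at 6 d, where Krt17 was near the floor. It fell by 3.58 in control cells and by 2.52 in knock-down cells (limma adjusted p = 5.01e-07 and 5.95e-06), with an interaction of 1.06 (SE 0.26). Krt42 fell by 2.76 and 1.54 (limma adjusted p = 2.61e-05 and 0.00148), with an interaction of 1.23. Dimmer Krt42 probes gave 0.36 and 0.68.

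Others of the higher side were Itga9, an integrin subunit that fell by 1.59 in control cells (interaction 1.05), and Hspb8, a small heat shock protein that rose in both cell types (1.07). Hyi rose by 1.42 in knock-down cells, from 7.27 and 7.11 to 8.64 and 8.57, with control arrays between 7.06 and 7.66 (interaction 1.05), but a dimmer Hyi probe gave -0.31. Nuak2, a kinase of the AMPK family (1.04), Rac3, a small GTPase (1.18), and Apobec3, a cytidine deaminase (1.08), completed it. Other probes gave 1.37 and 0.67 for Itga9, 0.74 for Hspb8 and 0.53 for Rac3.

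On the lower side Inpp5d, an inositol phosphatase, had an interaction of -1.54 and Zscan21, a zinc finger protein, one of -1.47, while the other Zscan21 probe, detected on all 8 arrays, gave 0.49. Nt5e, a cell surface nucleotidase, gave -1.25, Ppp1r37 -1.24 and Soga3 -1.23. Soga3 was 8.62 and 8.63 in untreated control cells and 9.91 and 10.47 in untreated knock-down cells, and lay between 7.85 and 8.28 on all 4 arrays at 6 d. Gadd45g, a stress and differentiation gene, rose by 3.63 in control cells and by 2.46 in knock-down cells (limma adjusted p = 3.77e-06 and 5.33e-05), with an interaction of -1.16. Arhgef3 (-1.05), the membrane fusion gene Vamp7 and the homeobox gene Cux1 (-0.92) followed. Dim other probes of Cux1 gave -0.42 and 0.63. The other probe gave -0.67 for Nt5e, -0.56 for Gadd45g and -1.15 for Soga3. Without the 3 arrays that resembled each other, Inpp5d was -0.83, Apobec3 0.68 and Nuak2 1.61, each a move of over 1.5 times.

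The gene lists below were described by counts and medians only. No member of any of the 24 lists passed the adjusted threshold, beside 0% of all genes fitted. Over all members the median interaction was -0.01 and the median size 0.23.

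Among 13 regulators and adaptors of primitive endoderm, all 13 rose in control cells and 12 in knock-down cells (12.2% and 12.1% of all genes fitted). The median interaction was -0.23, with 8 of 13 negative. Gata6, Foxq1 and Dab2 had a p under 0.05, and the receptor gene Pdgfra was -0.81 (SE 0.45). Gata4 (0.12), Sox17 (-0.23), Foxa2 (0.07) and Sox7 (0.05), which act in the same network, had intervals that spanned 0. Sox17 was 9.78 and 10.00 at 6 d in control cells and 9.23 and 10.09 in knock-down cells. The list median ran from -0.57 to -0.09 with single arrays left out and was -0.44 without the 3 arrays that resembled each other.

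The visceral endoderm list, genes of the yolk sac layer that takes up and secretes nutrients, had 9 members of 21 on the array and a median of -0.76, with 7 of 9 negative. Cubn, the vitamin B12 and albumin receptor cubilin, was undetected on all 4 untreated arrays. At 6 d Cubn was 10.18 and 9.23 in control cells and 8.53 and 7.17 in knock-down cells, and at 72 h 9.81 and 9.29 against 8.17 and 8.77. The knock-down arrays were the lower at both stages, with an interaction of -1.85 (SE 0.66, limma adjusted p = 0.7). Its partner Amn gave -1.29 (SE 0.56) and their co-receptor Lrp2 -0.97 (SE 0.55). Without the 3 arrays that resembled each other Amn was -0.84, Cubn -1.28 and Lrp2 -1.15.

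Ttr, which encodes the thyroid hormone carrier transthyretin, was 8.62 and 7.72 at 6 d in control cells and 7.20 and 6.25 in knock-down cells, with an interaction of -1.80 (SE 0.56, limma adjusted p = 0.673). Ihh, a hedgehog ligand, gave -0.76 (SE 0.58), and Spink1, a protease inhibitor, 0.44. In each 6 d group the first array was the higher for Cubn, Ttr, Amn, Lrp2 and Ihh. The list median was -1.10 without the 3 arrays that resembled each other and ran from -1.37 to -0.41 with single arrays left out. Summed over the list's 10 fitted genes, the linear intensity was 6622 and 3907 on the control 6 d arrays and 3416 and 2012 on the knock-down 6 d arrays. Untreated it was 3374 and 2978 in control cells against 3209 and 2264 in knock-down cells.

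Among 15 basement membrane genes the median was -0.10, with 8 of 15 negative and none at p under 0.05. Col4a1, the main type IV collagen chain, was 9.04 and 8.94 untreated and 15.23 and 14.75 at 6 d in control cells, and 9.66 and 9.19 and then 15.22 and 14.49 in knock-down cells. It rose by 6.01 and 5.43 (limma adjusted p = 3.09e-07 and 8.62e-07), with overlapping groups at 6 d and an interaction of -0.58 (SE 0.41). The laminin gene Lama1 gave -0.34 (95% interval -1.25 to 0.56), the collagen binder Sparc -0.59, and Nid1, a linker between laminin and collagen, 0.97 (SE 0.68), or 0.47 without the 3 arrays that resembled each other. The list median was -0.72 without the first knock-down 6 d array and 0.53 without the second, so 1 array set its sign.

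The 17 genes of collagen modification and secretion had a median of -0.37, with 14 of 17 negative. Of the 17 genes, 13 rose in control cells and 10 in knock-down cells, beside 12.2% and 12.1% of all genes fitted. Plod2, a collagen lysyl hydroxylase, was the only 1 at p under 0.05, at -1.23 (SE 0.56, limma adjusted p = 0.864). Plod2 was 12.15 and 10.98 at 6 d in control cells and 11.33 and 10.50 in knock-down cells, so the groups overlapped, with the first array the higher in each. The prolyl hydroxylase genes P3h2 and P4ha1 gave -0.93 and -0.73, but their other probes gave 0.43 and 0.03, and the collagen chaperone Serpinh1 0.30. The median was 0.02 without the second knock-down 6 d array and -0.68 without the first.

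Genes of late parietal endoderm, which cAMP brings up, had a median of -0.11 over 14 members, and 13 of the 14 rose in each cell type. Over all genes fitted 12.2% rose in control cells and 12.1% in knock-down cells. The simple epithelial keratins had positive values: Krt18 gave 0.95 (SE 0.77), Krt8 0.70 (SE 0.51) and Krt19 0.70 (SE 0.39), none with a p under 0.05. With single arrays left out Krt18 ran from 0.04 to 1.86, Krt8 from 0.14 to 1.26 and Krt19 from 0.27 to 1.13. Without the 3 arrays that resembled each other they were 2.32, 1.25 and 1.15. The list median was 0.20 without the first untreated knock-down array and -0.20 without the 3 arrays. Krt18 was 8.58 and 9.31 at 6 d in control cells and 10.85 and 9.03 in knock-down cells, so the groups overlapped. Fst, the activin inhibitor follistatin, gave 0.58. The receptor gene Stra6 gave -0.53. The 12 contractile genes had a median of 0.25, with Cnn2, a calponin, at 1.27 (SE 0.54) and smooth muscle actin Acta2 at 0.60 (SE 0.49). Leaving out the first knock-down 6 d array turned that median to -0.08, and without the 3 arrays it was 0.56, with Acta2 at 1.24 and Cnn2 at 2.05. In the main fit a second, dimmer Cnn2 probe gave 0.24, and the dimmer Acta2 probes gave 0.22, 0.20 and 0.02.

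Stem cell genes gave a small shift that 1 array decided. Of 32 pluripotency genes 16 fell in control cells and 17 in knock-down cells, beside 10% and 10.2% of all genes fitted. Their interactions were negative in 22 of 32, with a median of -0.16. The median was -0.51 without the second knock-down 6 d array and 0.30 without the first, and -0.37 without the 3 arrays that resembled each other. Pou5f1 was 11.86 and 12.00 at 6 d in control cells and 10.73 and 12.30 in knock-down cells, Sox2 7.75 and 7.86 against 6.92 and 8.13, and Nanog 11.42 and 12.09 against 10.75 and 11.87. The control arrays of Pou5f1 and Sox2 lay between the knock-down arrays. Their interactions were -0.20 for Pou5f1, -0.15 for Sox2 and 0.03 for Nanog, with 95% intervals that reach about 1 to either side.

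Dnmt3b, a DNA methyltransferase, fell by 0.79 in control cells and by 1.81 in knock-down cells (limma adjusted p = 0.0449 and 0.000503). Its interaction was -1.02 (SE 0.36, limma adjusted p = 0.698), and a dimmer probe gave 0.28. Prdm14, a repressor of differentiation, was detected in untreated control cells (6.44 and 6.61) and undetected in untreated knock-down cells (5.55 and 5.16). It fell by 1.05 in control cells (limma adjusted p = 0.012), and its interaction was 1.03 (SE 0.36). Klf4 gave 0.81, 1.39 and 0.58 on its 3 probes.

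Retinoic acid targets had a median of 0.08 over 19 members, with 10 positive, and 1 scaling (median -0.02) and leaving out the second untreated control array (-0.07) turned its sign. Cyp26a1, which breaks down retinoic acid, rose at least 99.3-fold in control cells and at least 114-fold in knock-down cells (limma adjusted p = 7.66e-07 and 8.62e-07). Its interaction was 0.35 (95% interval -0.92 to 1.61). The receptor gene Rarb gave 0.51 and Rara -0.79 (SE 0.27). The 19 Hox members had a median of 0.29 with 13 positive, and it ran from 0.14 to 0.40 with single arrays left out. Hoxa5 rose at least 34.8-fold in control cells and at least 51.2-fold in knock-down cells (limma adjusted p = 6.7e-08 and 5.58e-08), with an interaction of 0.80 (SE 0.31, limma adjusted p = 0.742). Hoxa5 was 10.54 and 10.99 at 6 d in control cells and 11.40 and 11.29 in knock-down cells. Hoxb9 and Hoxc13 each gave 1.04, near the floor, and without the 3 arrays that resembled each other Hoxb9 was 1.94.

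In the 18 p53 target and apoptosis genes the median was -0.29, with 14 negative. It ran from -0.45 to -0.11 with single arrays left out and was -0.15 without the 3 arrays that resembled each other. Of the 18 genes, 8 rose in control cells and 3 in knock-down cells, beside 12.2% and 12.1% of all genes fitted. The list's median difference, knock-down minus control, was 0.58 at 0 h, 0.52 at 72 h and 0.31 at 6 d. Pmaip1, which promotes apoptosis, was undetected in untreated control cells (5.47 and 4.93) and detected in untreated knock-down cells (6.31 and 6.63), with an interaction of -1.08 (SE 0.37). Aen, a p53-induced nuclease, gave 1.07 (SE 0.41). Casp8 rose by 1.23 in control cells (limma adjusted p = 0.00786) and its interaction was -0.81 (SE 0.38).

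Among 29 histone demethylases and regulators of H3K9 methylation the median was 0.03. Insm1, a repressor that recruits the LSD1 complex, was 5.40 and 5.31 in untreated control cells and 7.27 and 7.93 in untreated knock-down cells, and undetected on both control 6 d arrays and on both 72 h control arrays. It fell by 2.41 in knock-down cells (limma adjusted p = 0.000288), with an interaction of -1.78 (SE 0.44, limma adjusted p = 0.576). Rcor2, a corepressor of the same complex, gave 0.73 (SE 0.33), and Jmjd1c, a relative of Kdm3a, -0.45 (SE 0.31). Of the 35 cell cycle genes 25 were negative, with a median of -0.12 that was 0.14 without the first knock-down 6 d array and -0.21 without the 3 arrays. Rbl1, a retinoblastoma relative, fell by 1.46 in knock-down cells (limma adjusted p = 0.000914), with an interaction of -0.85 (SE 0.32).

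The other lists lay close to the median of all members or had few members: cAMP-induced genes (0.07, 12 members), cholesterol synthesis and uptake (-0.07, 18), imprinted genes (-0.12, 16), hypoxia and glycolysis (0.05, 24), endoplasmic reticulum chaperones (-0.12, 20), interferon response (-0.11, 11) and germ cell genes (0.22, 9). Each of these medians turned sign with at least 1 single array left out. Without the 3 arrays that resembled each other that of imprinted genes was 0.19, that of hypoxia and glycolysis -0.09, that of cholesterol genes -0.33, that of cAMP-induced genes 0.29 and that of the chaperones -0.19. Single members at p under 0.05 among them were Rhox5 (-1.24), described above, Eno2 (1.00), Rsad2 (0.79), Irf1 (0.71), Ddx4 (0.94) and Tex101 (0.90). The further probes of Irf1 gave 0.86, 1.02 and -0.40. None of the other genes that the naming rule took from these and earlier lists had a p under 0.05. Among them were the lactate exporter Slc16a3 (1.51, SE 0.76), the hypoxia gene Ndrg1 (-1.30, SE 0.70), the endoderm factor Hnf4a (-0.94, SE 0.52), the megalin chaperone Lrpap1 (-0.88, SE 0.45), the kinase Sik1 (-0.86, SE 0.55), the cell cycle inhibitor Cdkn1b (-0.80, SE 0.37), the demethylase Phf8 (0.71, SE 0.35) and the signal Nodal (-0.66, SE 0.40). A dim second Slc16a3 probe gave -0.79. With single arrays left out Slc16a3 ran from 0.65 to 2.36 and Ndrg1 from -2.22 to -0.38. Without the 3 arrays Slc16a3 was 0.42, Hnf4a -0.20 and Sik1 -1.53.

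Markers of other cell types were detected in part. Over all genes, 9619 of the 19057 named on the array were members. Of the genes on the array, members were 4 of 11 for trophoblast, 6 of 14 for neuroectoderm, 3 of 13 for mesoderm and primitive streak, 7 of 14 for fibroblasts and 4 of 12 for macrophages and blood. The mesoderm gene Mixl1, the neuroectoderm genes Sox1 and Pax6, and the blood cell gene Ptprc were not members. Ncam1 and Nes of the neuroectoderm list and Tfap2c of the trophoblast list were detected on all 8 arrays. The trophoblast list had a median of -0.97. Plac1, a placental gene, was undetected on all 4 untreated arrays, 9.46 and 8.30 at 6 d in control cells and 7.70 and 6.79 in knock-down cells, with an interaction of -1.75 (SE 0.58, limma adjusted p = 0.678). Eomes, a factor of trophoblast and mesoderm, gave -1.54 (SE 0.54). Summed over 7 fitted trophoblast genes, the linear intensity was 1439 and 1141 on the control 6 d arrays and 1051 and 802 on the knock-down 6 d arrays. Untreated it was 863 and 962 against 1016 and 1129. At 6 d the sums of this list and of the visceral endoderm list were both lower in knock-down cells. Untreated, the trophoblast sum was the higher in knock-down cells, while the visceral endoderm sums overlapped. A link between the lists was not tested. Fewer cells of a type and less RNA per cell cannot be told apart in these arrays.

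**Figure D4:**
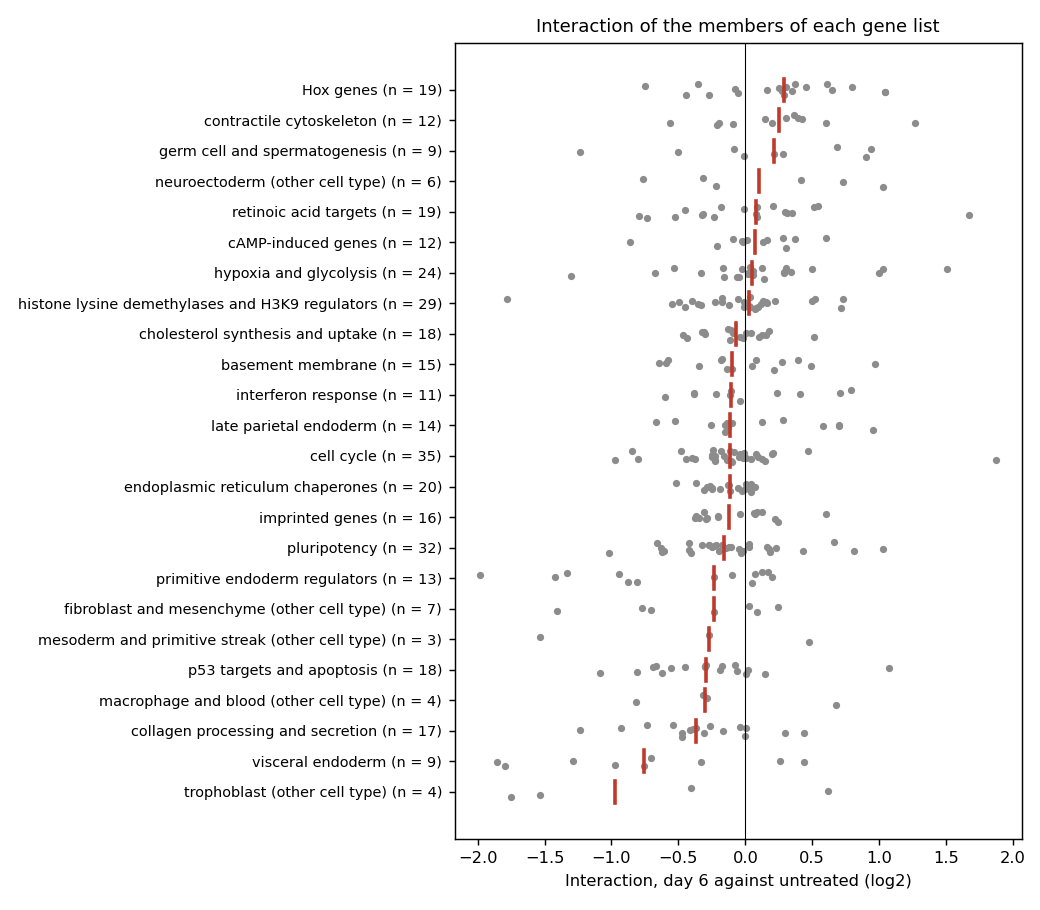
Interaction (log2, x axis) of every member of the 24 gene lists, 1 point per gene, with the red bar at the list median and the number of members in brackets. The medians run from -0.97 (trophoblast) to 0.29 (Hox genes), and points of every list with over 4 members fall on both sides of 0.

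The interaction was also set against the mean of the responses, whose estimate is not correlated with that of the interaction in this balanced design. Over 11621 genes, 18.5% rose and 17.9% fell in that mean at a limma adjusted p under 0.05. The 333 members that rose by at least 2 had a median interaction of -0.14, and 58.9% were negative, against 50.6% of all members. Of these, 33 had a lower and 15 a higher value at p under 0.05, and their median response was 2.83 in control cells and 2.68 in knock-down cells. The 745 members that rose by 1 to 2 had a median of -0.03. Those that fell by 1 to 2 (610) or by at least 2 (109) had -0.01 and -0.04, and the 5489 without a called mean response 0.00. A gene that rises from an undetected level has its rise cut by the offset, in both cell types.

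The interaction equals the difference between cell types at 6 d minus that at 0 h, and each end was tested too. At 0 h, 2 genes were called higher and 4 lower in knock-down cells (0.0172% and 0.0344% of 11621). At 6 d the limma count was 0 of 11621, with 912 genes (7.85%) at an unadjusted p under 0.05. Of the 547 members with an interaction p under 0.05, the difference was larger at 0 h in 280 (51.2%), and 446 (81.5%) had opposite signs at the ends. The choice by the interaction favours opposite signs, so these shares describe the choice.

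The 72 h arrays were not used by the rule, though they entered the shared spread behind the p-values. At 72 h the difference between cell types had the sign of the interaction in 332 of those 547 members (60.7%), beside 5337 of all 9619 (55.5%). It had the sign of the 0 h difference in 239 (43.7%) and of the 6 d difference in 343 (62.7%), beside 60% and 65.7% of all members. Among the named members, the 72 h difference lay between the other stages in 14 of 15 higher and 15 of 15 lower ones. The choice favours opposite signs at 0 h and 6 d, between which a value near 0 must lie, so these counts describe the choice. The 72 h difference had the sign of the interaction in 9 of 15 higher and 8 of 15 lower ones. The median of the higher members went from -0.93 at 0 h to 0.08 at 72 h and 0.69 at 6 d, and that of the lower members from 0.96 to -0.08 and -0.78. The 0 h and 6 d ends of these lines are fixed by the choice of genes, and the 72 h medians lay near 0. The steps from 0 h to 72 h and from 72 h to 6 d gave 0 interaction calls each in limma, with 409 and 216 genes at an unadjusted p under 0.05 (3.52% and 1.86%).

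**Figure D5:**
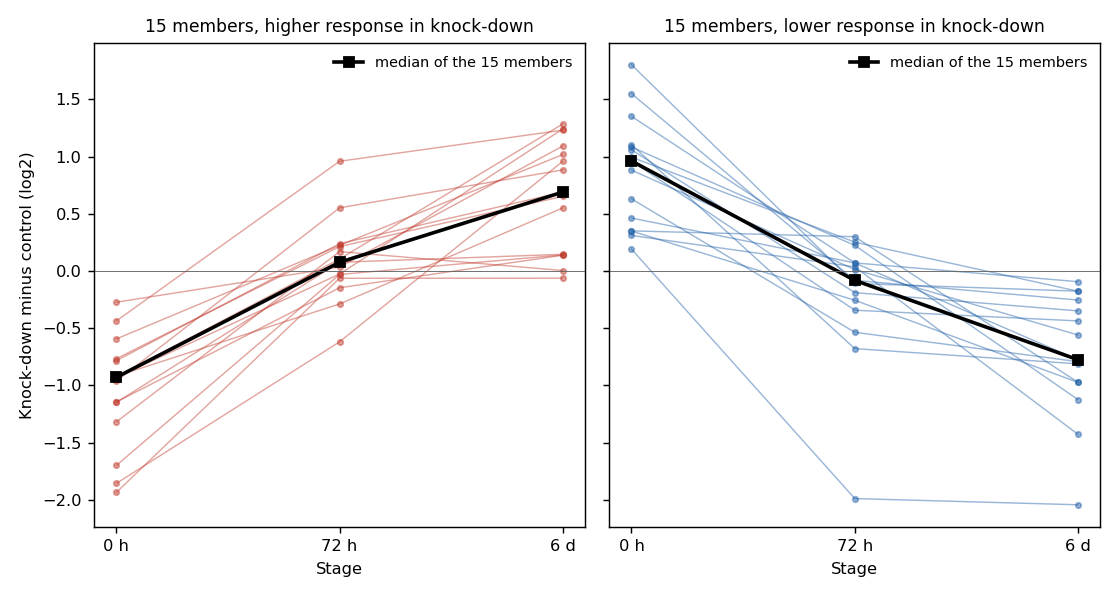
Difference between knock-down and control cells (log2, y axis) at 0 h, 72 h and 6 d for the 15 named members with a higher (left) and the 15 with a lower (right) response in knock-down cells. Thin lines are genes and the thick line is their median, which is -0.93, 0.08 and 0.69 on the left and 0.96, -0.08 and -0.78 on the right. The genes were chosen by their 0 h and 6 d values, and Pdlim4 is the lowest line on the right at 72 h and 6 d.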

How the data were processed

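The authors deposited non-normalized probe intensities from Illumina MouseWG-6 v2 arrays, 45281 probes an array, and a p-value of detection beside each, per the file headers. Bead values had been summarised per probe before deposit, by software not named in the labels or headers. The deposited processed table of intensities served as an alternative only. RNA and cRNA were made with Tripure, RNeasy and an Ambion kit, per the labels' protocols.

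Background was removed with the nec function of limma (version 3.58.1, R version 4.3.3), which reads it off the detection p-values, and 16 was added as an offset before log2 and quantile normalization. The offset shrinks changes of dim genes. The 21525 probes detected (p under 0.05) on 2 or more arrays were fitted. The platform annotation names 1 gene for 34885 probes, several for 18 and none for 10378; unnamed probes were left out of the gene fit. The brightest probe stood for a gene (11621 genes), and 4372 genes had other probes tested.

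All 12 arrays entered 1 limma model with a mean per group (6 residual and 5.01 prior degrees of freedom), tested on simulated data. P-values were Benjamini-Hochberg adjusted over all genes, with a threshold of 0.05. A response range runs from the lowest 6 d minus the highest 0 h array to the highest minus the lowest. A fold given as "at least" sets a group undetected on both arrays to its own value or the array's lowest detected value, whichever is higher. Nothing in the labels says that replicates came from separate cultures beyond the words biological replicate, so p-values may measure technical spread.

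Named genes were Kdm3a, the 15 of each direction described in the report, and up to 3 members of each list by p (more for the endoderm lists). Genes named beside these, such as Gata4, Pou5f1 and those detected on all 8 arrays, were chosen after their values were seen. Members and the 24 lists were chosen with earlier results of these data known. Alternatives covered normalization, background, filter, probe choice, moderation, a replicate block and each array left out.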

Additional observations from a re-analysis of the deposited data

How the results depend on the processing

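The count of interactions past the limma threshold was 0 under every alternative run except without control 6 d replicate 2, where it was 1 (0 to 1 with single arrays left out). The unadjusted count ran from 358 (median centring of arrays) to 1406 (without the 3 arrays that resembled each other, chosen after seeing the data). With only the 8 arrays fitted, so that the 72 h arrays did not enter the spread, the unadjusted count was 451, against 668 in the main fit. The shift of the all-gene median stayed within 0.05 under every scaling. The number of members was 11344 with detection on 1 array and 8676 at a detection p under 0.01. With the replicate number as a block (replicate block), the labels' numbers being all that the samples share, the interaction count was 0 with 795 unadjusted, the control and knock-down responses 2940 and 2973, and the differences 6 at 0 h and 0 at 6 d. Deviations of same-numbered arrays correlated at 0.19 to 0.60 between the 4 groups of the interaction, and at -0.13 to 0.31 where a 72 h group was in the pair.

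Called responses fell to 1707 in control and 1683 in knock-down cells when only the 8 arrays were fitted, from 2579 and 2596, and ran from 1428 to 3112 and from 1562 to 2889 with single arrays left out. The mean response gave 3339 to 5045 calls. The 6 calls at 0 h became 0 under cyclic loess, 3 with no filter, 0 with only the 8 arrays, 0 without the 3 arrays and 1 with those as a block, and 0 to 6 with single arrays left out. The 0 calls at 6 d became 7 under median centring, 8 without background correction, 8 in the authors' table, 1 each with no filter, a detection p under 0.01, a trended prior, without the 3 arrays and with those as a block. They were 0 to 69 with single arrays left out, 69 without knock-down 6 d replicate 2. The 1 call at 72 h became 6 under median centring, 0 under cyclic loess, 2 each without background correction, in the authors' table, with the mean of probes and with a trended prior, and 0 to 1 with single arrays left out. The interactions over the steps gave 0 throughout. The cause of these moves was not tested.

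Of 137 named genes, 118 kept the sign of their interaction under every alternative, and 1, Gjb2, crossed the threshold (limma adjusted p = 0.0365). Without background correction 14 of the 15 higher and 13 of the 15 lower leading members were smaller by over 1.5 times. The leading members could not turn sign with arrays left out, because they were chosen for response ranges that did not overlap. The same holds for the genes of smallest p among those detected on all 8 arrays, whose ranges did not overlap either. The 19 that turned sign had interactions of at most 0.65 in size. With single arrays left out, Nid2 ran from -1.34 to 0.052, Dhcr7 from -0.16 to 1.19, Insig1 from -0.95 to 0.027, Hyou1 from -1.22 to 0.19, Lama1 from -0.71 to 0.025, Sqle from -0.62 to 0.0033, Pecam1 from -0.59 to 0.016, Myl7 from -0.91 to 0.37, Sox2 from -0.75 to 0.46, Spink1 from -0.22 to 1.10, Gata4 from -0.57 to 0.81, Cyp26a1 from -0.32 to 1.02, Pou5f1 from -0.98 to 0.59, Serpinh1 from -0.041 to 0.63, Sox7 from -0.14 to 0.24, Nanog from -0.53 to 0.59, Sox17 from -0.66 to 0.20, Foxa2 from -0.46 to 0.60 and Stra6 from -1.23 to 0.18. The mean of probes gave 0.063 for Pecam1 and -0.091 for Nanog. Without the 3 arrays Myl7 was 0.031, Gata4 -0.45 and Nanog -0.21, and with those as a block Sox2 was 0.072, Gata4 -0.18, Cyp26a1 -0.0064 and Pou5f1 0.13. Foxa2 was -0.029 under cyclic loess, -0.00685 without background correction and -0.00824 in the authors' table.

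The file headers name no beadchip, so that block was not run. The 2 arrays per group limit the precision, and for members undetected in a group signal over background limits it further. Where an array was left out, the lone array of its group was assumed to vary like the other groups.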

Other observations

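Probes without a gene symbol entered no comparison above. In a fit of all 21525 kept probes, of which 3378 had no symbol, no probe passed a limma adjusted p of 0.05 for the interaction (smallest 0.117), and 1148 had an unadjusted p under 0.05, 182 of them unnamed. The unnamed probes with the smallest p were ILMN_2732554, with an interaction of 2.77, and ILMN_2731509, with 2.49 (limma adjusted p = 0.117 for each).

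Responses on the arrays were all of opposite sign between the cell types for 166 members (1.73%). The share over all genes fitted was not counted, so the count is not a result about the members. Of the 30 leading members 12 were among them: Gjb2, Ldc1, Ccnd1, Zfp568, Evc, Xlr4c, Olfr1116, Kif17, Cmklr1, Zfp36l3, Olfr638 and Dapk2. The 30 were chosen for response ranges that did not overlap, which favours opposite signs, so this number describes the choice. Of these 12, Ccnd1 was the only gene detected on all 8 arrays. Among the other genes described above that all 8 arrays detected, Inpp5d, Nt5e, Arhgef3, Ppp1r37 and Vamp7 also had wholly opposite responses.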
